A study of Mus musculus with 12 samples.

Results

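The replication-dependent histone genes were followed in rhabdoid tumors (RTs) of the mouse. They were taken as the rows whose symbol begins with Hist1h, Hist2h, Hist3h or Hist4h, the older mouse symbols that name the genomic cluster and the histone class. This rule found 68 genes among 24060 rows, of which 6 encode H1, 18 encode H2A, 19 encode H2B, 12 encode H3 and 13 encode H4. By cluster, 54 lie in Hist1 on chromosome 13, 10 in Hist2 on chromosome 3, 3 in Hist3 on chromosome 11 and 1 in Hist4 on chromosome 6. Hist3h2bb-ps is annotated as a pseudogene.

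The 12 RTs arose in P0-CreC;Smarcb1flox/flox mice, in which the P0 promoter drives Cre recombinase in early neural crest cells and the Schwann cell lineage and both copies of Smarcb1, a subunit of the SWI/SNF chromatin remodeling complex, are deleted. By the labels, 4 tumors were retro-orbital, 3 came from the cheek, 3 from the meninges, 1 from the vestibular nerve and 1 from the trigeminal nerve. All carry the same genotype, and no normal tissue or control tumor was analysed here, so each comparison is between tumors. Cells that do not express the Cre, such as leukocytes and endothelium, keep Smarcb1, and its level was between 1.70 and 6.31 RPKM. Cheek tumors 2 and 3, cheek tumor 1 and meninges tumor 1, and retro-orbital tumor 3 and the trigeminal nerve tumor form 3 pairs that share the first part of the identifier in their titles. No label says if such a pair came from a single mouse, and the p-values below measure the spread between tumors taken as separate samples. Values are RPKM as deposited, that is, fragments scaled by gene length and by the depth of the tumor's library, which allows levels to be compared between genes. The totals behind them ranged from 13206168 to 57128422 fragments per tumor (median 27929720), and 3 fragments of a gene of 1 kilobase were worth 0.0525 to 0.227 RPKM.

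Replication-dependent histone genes supply the core histones H2A, H2B, H3 and H4 and the linker histone H1 that package newly made DNA, and they are transcribed in S phase. Most of their transcripts have no intron and no poly(A) tail. They end instead just after a stem-loop that is bound by the stem-loop binding protein Slbp, and their half-life is short once DNA synthesis stops. Libraries made by selection of poly(A) lose most of this RNA. The RT libraries were made from total RNA after removal of ribosomal RNA and could keep it. In bulk tumors, more cells in S phase and more histone RNA per cell cannot be told apart.

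The stem-loop is shown because it marks the RNA as one that needs no poly(A) tail. It was looked for in the GENCODE M21 transcripts, on GRCm38, as 16 bases after the stop codon that begin with GG and end with CC, with 4 loop bases that begin with TT and at least 5 of 6 stem bases paired. It was found in 44 of the 68 genes, 21 to 58 bases after the stop codon (median 31), and all 6 stem bases were paired in each. Of the 48 genes whose transcript model runs at least 60 bases past the stop codon, 42 held it. The letters are DNA, 5′ to 3′, with the stem in capitals and the loop in lower case.
Hist1h1e, chr13:23621782-23621797, - strand: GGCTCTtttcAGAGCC
Hist1h2bb, chr13:23747203-23747218, + strand: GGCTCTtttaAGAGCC
Hist1h4d, chr13:23581950-23581965, + strand: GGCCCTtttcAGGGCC
Hist2h4, chr3:96262939-96262954, - strand: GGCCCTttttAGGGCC
Hist1h4b, chr13:23757366-23757381, + strand: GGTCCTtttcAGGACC
Hist2h2ac, chr3:96220418-96220433, - strand: GGCTCTttttAGAGCC
The form of Hist1h1e was present in 26 genes of the H1, H2A, H2B and H3 classes and in no H4 gene, and that of Hist1h2bb in 6 genes. The stem of Hist1h4d was present with its loop in 7 genes, all H4, and the form of Hist2h4 in 2 genes, also H4. That of Hist1h4b occurred in 2 H4 genes and that of Hist2h2ac in itself alone. Besides the stem-loop, 14 of the 44 models also held AATAAA, the poly(A) signal, after the stop codon. Hist1h2bc and Hist2h2be, both known also as polyadenylated RNA, had AATAAA and no stem-loop within the annotated transcript. For 24 genes no stem-loop was found, and most of these models end at or near the stop codon.

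Of the 68 genes, 52 reached 1 RPKM in all 12 RTs and 58 in at least 1, and 34 reached 10 RPKM in all. Their summed RPKM was 3927 ± 1503 (SD, n = 12), which is 0.936% ± 0.337 of the RPKM of all rows. By tumor it was 3677, 1893, 2079 and 3858 in retro-orbital tumors 1 to 4, 3844, 3001 and 3894 in cheek tumors 1 to 3, 5743, 4308 and 3584 in meninges tumors 1 to 3, 7500 in the vestibular nerve tumor and 3743 in the trigeminal nerve tumor. Retro-orbital tumors 2 and 3 were the lowest and the vestibular nerve tumor the highest, a 3.96-fold range. The means were 2877 ± 1034 (SD, n = 4) in the retro-orbital, 3580 ± 502 (SD, n = 3) in the cheek and 4545 ± 1099 (SD, n = 3) in the meninges tumors, and the 3 locations overlapped.

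**Figure D1:**
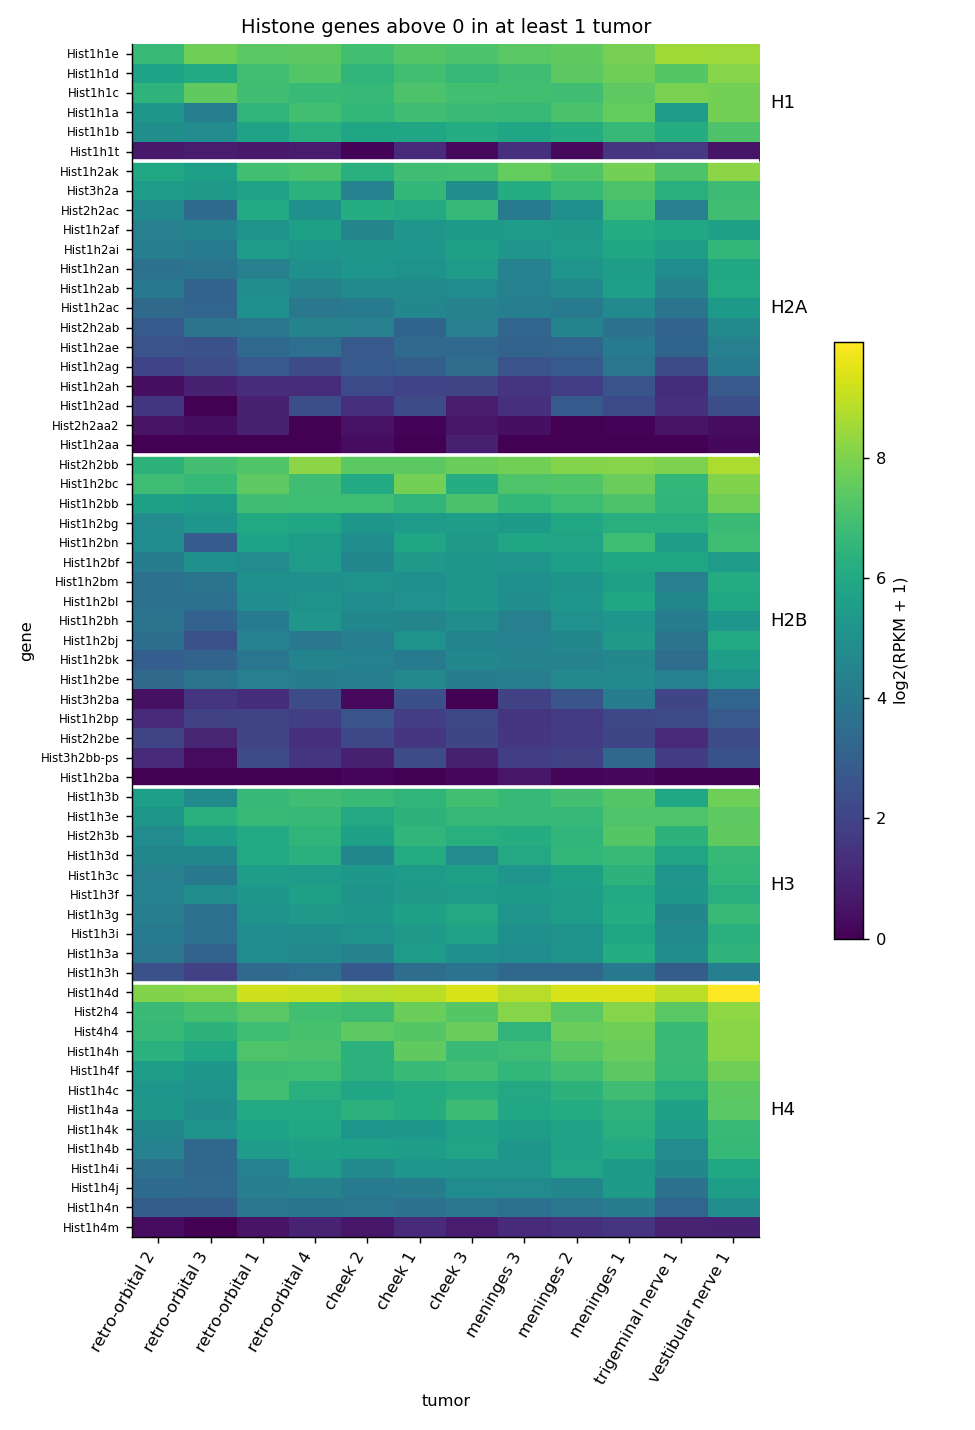
Level of the 61 histone genes above 0 in at least 1 tumor, as log2(RPKM + 1), with genes in rows grouped by class and ordered by median, and tumors in columns grouped by location. Hist1h4d is the brightest row in every tumor, and the vestibular nerve column is bright in all 5 classes.

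Divided by class, the H4 genes contributed 1454 ± 539 RPKM, the H2B genes 787 ± 298, the H1 genes 654 ± 248, the H3 genes 566 ± 251 and the H2A genes 466 ± 202 (SD, n = 12 each). Of the histone RPKM as counted from unique reads, H4 therefore held 37.2% ± 2.52 and H2A 11.6% ± 1.05. Genes that share sequence may be undercounted, as described below. Classes and clusters differ in such genes, so their sums and shares are uncertain in the same way. The H2B share had the smallest SD of the 5 classes, at 0.902, and lay between 18.3% and 21.7%. The H1 share ran from 13.7% to 24.3% and was above 20% only in retro-orbital tumor 3, at 24.3%, and the trigeminal nerve tumor, at 23.5%. By cluster, Hist1 held 79.6% ± 1.26 of the sum, Hist2 14.4% ± 1.08, Hist4 4.03% ± 1.04 and Hist3 1.97% ± 0.694. The Hist3 share was 0.707% and 0.794% in cheek tumors 2 and 3 and between 1.57% and 2.95% in all other tumors.

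A few genes carried much of each class. The 10 genes with the highest medians made up 52.0% ± 4.39 of the histone sum. Hist1h4d, which encodes H4 like all genes of its class, was the highest with a median of 518 RPKM. It was 593, 264, 290 and 543 RPKM in retro-orbital tumors 1 to 4, 480, 459 and 638 in the cheek tumors, 677, 649 and 465 in the meninges tumors, 976 in the vestibular and 492 in the trigeminal nerve tumor. It followed the order of the sum at both ends, with the lowest values in retro-orbital tumors 2 and 3. The second H4 gene was Hist2h4, with a median of 166 RPKM (range 108 to 306). Among H2B genes Hist2h2bb led with a median of 216 RPKM (85.5 to 413), ahead of Hist1h2bc at 131 (67.0 to 263). Among H3 genes Hist1h3b had a median of 102 RPKM (25.5 to 210) and Hist1h3e of 97.1 (36.8 to 178). Among H2A genes Hist1h2ak had a median of 129 RPKM (47.7 to 291) and Hist3h2a of 72.0 (20.2 to 143).

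The authors kept only uniquely mapped reads, so a read that fits several histone copies equally well was not counted. Hist1h2ao, Hist1h2ap, Hist1h2bq, Hist1h2br, Hist2h2aa1, Hist2h3c1 and Hist2h3c2 were listed at 0 in all 12 tumors. As a measure of shared sequence, each gene's GENCODE transcripts were divided into all windows of 100 bases, and those found in no transcript of a gene elsewhere in the genome were counted. Such windows made up 7.35% of Hist1h2ao, 7.83% of Hist1h2ap, 5.16% of Hist1h2bq, 13.6% of Hist1h2br and 4.11% of Hist2h2aa1. Hist2h3c1 at 67.1% and Hist2h3c2 at 38.4% were at 0 although their longer GENCODE models hold unique windows. Conversely, Hist2h2bb, Hist2h4 and Hist1h4d reached 100%.
Over the 68 genes, 14 had fewer than 25% unique windows, and the median of their median levels was 1.55 RPKM. It was 39.2 RPKM in the 27 genes from 25% to 75% and 63.4 RPKM in the 27 genes above. Spearman's rho between unique windows and median level was 0.42 with windows of 100 bases and 0.39 with windows of 50 bases, across genes that are not independent. The RPKM of a gene with few unique windows, such as Hist1h3h at 8.01%, Hist1h2ai at 11.6% or Hist2h3b at 22.9%, may be undercounted and is uncertain. The percentages are also approximate, since GENCODE models can differ in length from the region counted. Hist1h3h has a model of 411 bases where its RPKM values gave a length of 488. Hist1h1d has a model of 7425 bases against 776. The part of model length in the bins and in rho was not tested.

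**Figure D2:**
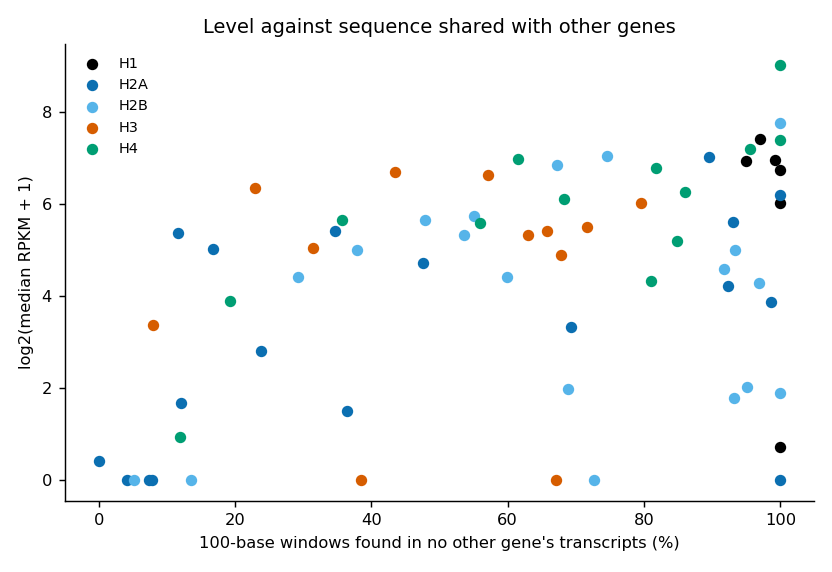
Percent of 100-base transcript windows found in no other gene, against log2(median RPKM + 1), with 1 point per histone gene colored by class. The genes at 0 lie mostly at the left, where few windows are unique, and the highest gene, Hist1h4d, lies at 100%.

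The testis-type genes were at or near the floor. Hist1h2aa was seen in only 3 tumors, with 0.271, 0.838 and 0.156 RPKM from 4, 5 and 2 fragments, and Hist1h2ba reached at most 0.520 RPKM, from 4 fragments. Unique windows made up 100% of Hist1h2aa and 72.6% of Hist1h2ba, which shares others with H2B genes such as Hist1h2bj and may be undercounted. Hist1h1t, the testis linker histone, was between 0.0834 and 2.12 RPKM. Prm1, Tnp1 and Ddx4, which mark germ cells of the testis, together reached at most 1.62 RPKM.

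Mki67, the gene of the Ki-67 antigen of cycling cells, served as the index of proliferation. It was 35.9, 30.4, 18.6 and 49.8 RPKM in retro-orbital tumors 1 to 4, 48.6, 34.4 and 42.0 in the cheek tumors, 61.5, 63.1 and 55.2 in the meninges tumors, 61.6 in the vestibular and 63.0 in the trigeminal nerve tumor. Every meninges tumor was above every retro-orbital and cheek tumor. On the log2 scale, the histone sum and Mki67 had a Pearson r of 0.80 and a Spearman rho of 0.74 over 12 tumors, given as a description since both come from the same libraries. Without the pair farthest from the median of Mki67, retro-orbital tumors 2 and 3, r was 0.61 and rho 0.56 over 10 tumors. At about the same Mki67 of 61.5 to 63.1 RPKM, the sum lay between 3743 RPKM in the trigeminal nerve and 7500 RPKM in the vestibular nerve tumor, and the ratio of sum to Mki67 was 59.4 and 122. By class, r with Mki67 was 0.84 for H2A, 0.82 for H2B, 0.81 for H3, 0.76 for H4 and 0.70 for H1. Without those 2 tumors it was lower for the core classes, between 0.43 for H4 and 0.64 for H2B, and 0.77 for H1.

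**Figure D3:**
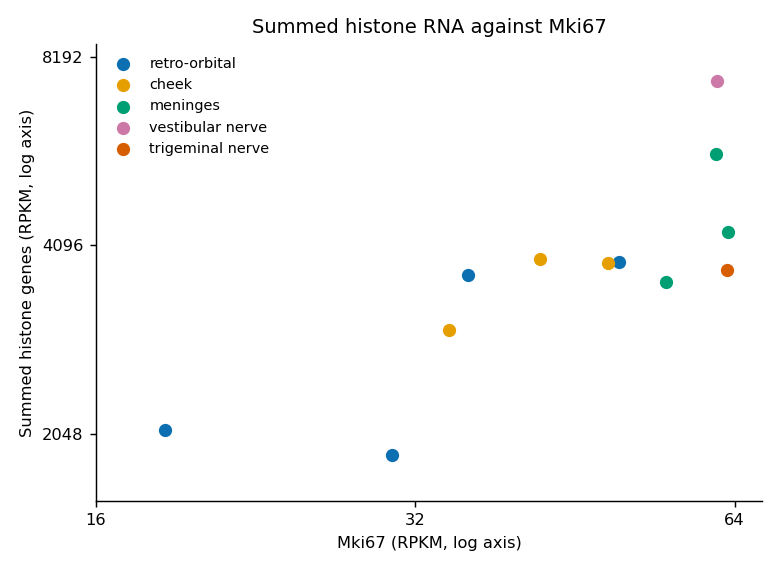
Summed RPKM of the 68 histone genes against Mki67 RPKM, both on log axes, with 1 point per tumor colored by location. Retro-orbital tumors 2 and 3 lie at the lower left, and the 4 tumors with Mki67 from 61.5 to 63.1 RPKM have sums from 3743 to 7500 RPKM.

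Gene by gene, the slope on Mki67 was fitted with limma on log2(RPKM + 1) over 12 tumors, for the 15042 genes that reached 1 RPKM in 3 or more of them. Well above 1 RPKM, a slope of 1 means that a gene doubles when Mki67 doubles. All 58 histone genes that passed the filter had a positive slope, with a median of 0.89, where the median of all genes tested was 0.12 and 63.9% of them had a positive slope. No histone gene passed the Benjamini-Hochberg threshold, and neither did any other gene, so the share called was 0% in both directions. With tumors that share an identifier as a replicate block, an alternative chosen after the data were seen, 29 of the 58 histone genes (50%) and 609 genes in all (4.05%) were called, and all 29 slopes were positive. That fit takes 1 correlation within pairs, 0.71, as known, although it was estimated from 3 pairs. With the mean of each pair in place of its tumors, 0 were called. The smallest adjusted p in limma was 0.0585, which Hist1h2ak and Hist1h2bn shared. At an unadjusted p under 0.05, 46 of the 58 histone genes had a positive slope and 0 a negative one, which is 79.3% where the share over all genes tested was 10.5% for positive and 3.36% for negative slopes. With location as a covariate, 23 of the 58 (39.7%) had an unadjusted p under 0.05, where the share of all genes in that fit was 9.57%.
The call also depended on 2 tumors that share an identifier. Without retro-orbital tumor 3, 10 of the 58 histone genes (17.2%) and 455 genes in all (3.08%) passed the threshold. Without the trigeminal nerve tumor 22 (37.9%) and 284 (1.9%) did so. Of these, Hist1h1d, Hist1h2af, Hist1h2ak and Hist1h3d passed in both fits, and every one of the called histone genes had a positive slope. The calls without each of the other 10 tumors numbered 0.

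**Figure D4:**
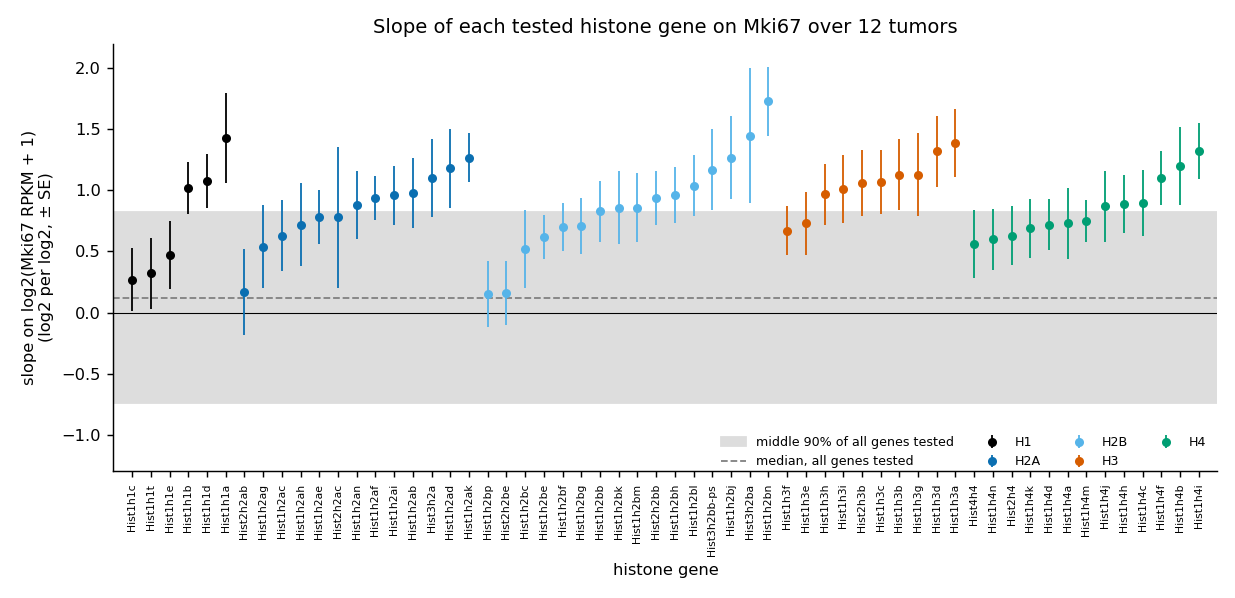
Slope of each of the 58 tested histone genes on log2(Mki67 RPKM + 1) over 12 tumors, with its SE, grouped by class, and for all genes tested the median (dashed line) and the range from the 5th to the 95th percentile (gray band, -0.74 to 0.82). All histone genes lie above 0, from 0.15 for Hist1h2bp to 1.73 for Hist1h2bn.

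By class, all 10 H3 genes tested had an unadjusted p under 0.05, with slopes from 0.67 to 1.39 and a median of 1.06. Of 13 H4 genes 12 did so (median slope 0.75), of 16 H2B genes 13 (0.86), of 13 H2A genes 8 (0.88) and of 6 H1 genes 3 (0.75). Whether the classes differ in slope was not tested.
The largest slope was that of Hist1h2bn, an H2B gene, at 1.73 ± 0.28 (SE, adjusted p = 0.0585 in limma). It was 53.7, 27.7, 6.25 and 44.9 RPKM in retro-orbital tumors 1 to 4, 58.0, 28.5 and 40.4 in the cheek tumors, 113, 55.0 and 56.4 in the meninges tumors, 114 in the vestibular and 45.0 in the trigeminal nerve tumor. Retro-orbital tumor 3 was far below the rest, and unique windows made up 47.9% of Hist1h2bn. The next were Hist3h2ba at 1.45 ± 0.55, Hist1h1a at 1.43 ± 0.37, Hist1h3a at 1.39 ± 0.28 and Hist1h4i at 1.32 ± 0.23 (SE). At the other end, Hist1h2bp had a slope of 0.15 ± 0.27, Hist2h2be of 0.16 ± 0.26, Hist2h2ab of 0.17 ± 0.35, Hist1h1c of 0.27 ± 0.26 and Hist1h1t of 0.32 ± 0.29 (SE). Of these 5, Hist1h1c was high, at 87.6 to 245 RPKM, and Hist2h2ab reached 6.06 to 26.0 RPKM. The other 3 stayed below 6 RPKM in every tumor, where the scale of log2(RPKM + 1) understates differences.

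The genes known to yield polyadenylated RNA outside S phase had slopes of 0.27 for Hist1h1c, 0.52 ± 0.32 for Hist1h2bc and 0.16 for Hist2h2be, each with an unadjusted limma p above 0.05 (0.315, 0.133 and 0.548). Without retro-orbital tumor 3 the slope of Hist1h1c was larger and that of Hist2h2be negative, as given below. Hist1h2bc was 178, 114, 100 and 117 RPKM in retro-orbital tumors 1 to 4, 231, 67.0 and 70.0 in the cheek tumors, 204, 148 and 145 in the meninges tumors, 263 in the vestibular and 93.4 in the trigeminal nerve tumor. Cheek tumors 2 and 3 were lowest and cheek tumor 1 was among the highest, so the cheek alone spanned most of the range of the 12 tumors. Hist2h2be, in contrast, was between 1.02 and 3.99 RPKM in all tumors.

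Linker histones bind the DNA between nucleosomes, and Hist1h1a to Hist1h1e encode the somatic H1 subtypes. Hist1h1b had a slope of 1.02 ± 0.21 and Hist1h1d of 1.08 ± 0.22, next to 1.43 for Hist1h1a, while Hist1h1e had 0.47 ± 0.28 (SE). Without retro-orbital tumor 3 the order was another, with 1.22 for Hist1h1e, 1.02 for Hist1h1a, 1.09 for Hist1h1b, 1.45 for Hist1h1d and 0.93 for Hist1h1c, so the low slopes of Hist1h1e and Hist1h1c rested on that tumor. In limma over 12 tumors, the adjusted p was 0.0974 for Hist1h1b and Hist1h1d, 0.144 for Hist1h1a, 0.466 for Hist1h1e and 0.653 for Hist1h1c. Hist1h1a was 89.4, 37.2, 18.7 and 121 RPKM in retro-orbital tumors 1 to 4, 118, 95.5 and 108 in the cheek tumors, 189, 134 and 103 in the meninges tumors, 231 in the vestibular and 43.0 in the trigeminal nerve tumor. Hist1h1e was 167, 102, 214 and 170 RPKM in the retro-orbital tumors, 153, 122 and 138 in the cheek tumors, 235, 179 and 168 in the meninges tumors, 359 in the vestibular and 362 in the trigeminal nerve tumor. In retro-orbital tumor 3 and the trigeminal nerve tumor, Hist1h1a was thus low while Hist1h1e was high.
The ratio of Hist1h1e to Hist1h1a was 11.5 in retro-orbital tumor 3 and 8.40 in the trigeminal nerve tumor, against 1.24 to 2.75 in the other 10. Of the summed H1 RPKM, Hist1h1a held 3.71% and 4.90% in those 2 tumors and 12.0% to 20.7% in the others. Hist1h1c was 179 and 245 RPKM there and 87.6 to 231 RPKM elsewhere. The pair shares an identifier, differed in Mki67, at 18.6 and 63.0 RPKM, and in depth, at 57128422 and 21173008 fragments. Unique windows made up 100% of Hist1h1a and 97.0% of Hist1h1e, but the annotated span of Hist1h2be overlaps part of Hist1h1e on the same strand. The same 2 tumors stood apart in the ratio of Hist1h1c to Hist1h1a, at 9.57 and 5.68 against 0.866 to 2.35. They also did so for Hist1h1d to Hist1h1a, at 3.46 and 3.64 against 0.896 to 1.42. For Hist1h1b to Hist1h1a the values were 1.44 and 1.63 against 0.473 to 0.809. All of these ratios are divided by Hist1h1a, which was low in both tumors, and they are not separate observations. The summed astrocyte markers Gfap and Aqp4 were at 249 RPKM in retro-orbital tumor 3 and 109 RPKM in the trigeminal nerve tumor, and at 0.490 to 16.2 RPKM in the other retro-orbital tumors. Meninges tumors 1 and 3, at 294 and 348 RPKM, had higher astrocyte markers and ratios of Hist1h1e to Hist1h1a of 1.24 and 1.62. The part of the shared identifier or of other cells in these ratios was not tested.

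**Figure D5:**
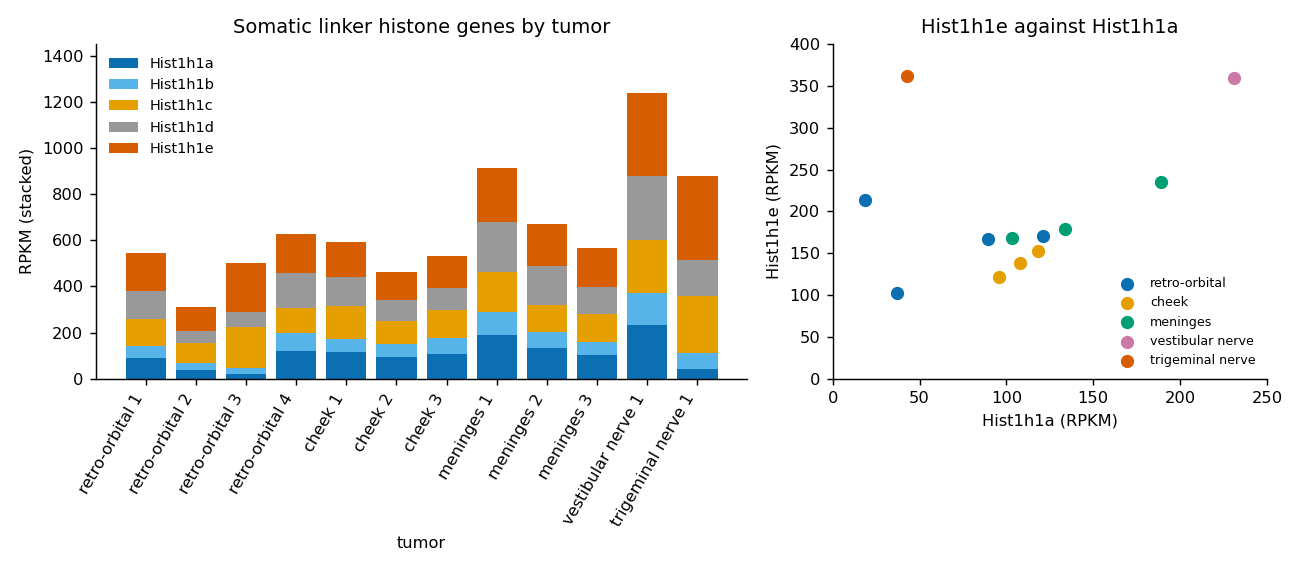
Left, RPKM of the 5 somatic linker histone genes stacked by tumor. Right, Hist1h1e against Hist1h1a RPKM, with 1 point per tumor colored by location, where retro-orbital tumor 3 (18.7 and 214 RPKM) and the trigeminal nerve tumor (43.0 and 362 RPKM) lie at the upper left of the others.

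The promoters of this pair are shown because both genes encode H1 and their levels diverged in 2 tumors, beside those of the highest H2B and H4 gene. Promoters are those of RefSeq on GRCm38.p6, from 250 bases before to 50 bases after the start, 5′ to 3′, matched for 61 of the 68 genes (62 promoters, since Hist1h2be has 2). Capitals mark 4 motifs searched on both strands, the H1 box AAACACA known from H1 genes, the octamer ATTTGCAT known from H2B genes, CCAAT and TATAAA.
Hist1h1a, chr13:23763418-23763717, + strand: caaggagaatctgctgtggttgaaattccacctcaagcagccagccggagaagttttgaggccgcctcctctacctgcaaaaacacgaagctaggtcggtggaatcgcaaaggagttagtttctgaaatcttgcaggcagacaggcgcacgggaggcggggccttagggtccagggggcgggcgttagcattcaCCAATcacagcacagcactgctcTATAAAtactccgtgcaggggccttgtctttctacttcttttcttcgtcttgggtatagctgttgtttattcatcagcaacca
Hist1h1e, chr13:23622509-23622808, - strand: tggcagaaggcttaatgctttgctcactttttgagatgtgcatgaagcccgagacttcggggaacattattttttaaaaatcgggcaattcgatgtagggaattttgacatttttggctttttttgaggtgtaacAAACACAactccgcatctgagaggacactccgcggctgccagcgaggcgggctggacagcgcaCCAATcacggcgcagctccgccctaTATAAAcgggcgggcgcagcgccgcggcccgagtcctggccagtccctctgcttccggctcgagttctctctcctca
Hist2h2bb, chr3:96269450-96269749, + strand: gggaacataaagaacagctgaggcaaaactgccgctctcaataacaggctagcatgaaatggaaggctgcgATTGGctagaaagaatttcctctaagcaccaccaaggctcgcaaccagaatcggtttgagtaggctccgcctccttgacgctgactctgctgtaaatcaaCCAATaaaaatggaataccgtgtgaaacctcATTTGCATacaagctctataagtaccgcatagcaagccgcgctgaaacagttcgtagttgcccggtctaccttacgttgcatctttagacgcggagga
Hist1h4d, chr13:23581318-23581617, + strand: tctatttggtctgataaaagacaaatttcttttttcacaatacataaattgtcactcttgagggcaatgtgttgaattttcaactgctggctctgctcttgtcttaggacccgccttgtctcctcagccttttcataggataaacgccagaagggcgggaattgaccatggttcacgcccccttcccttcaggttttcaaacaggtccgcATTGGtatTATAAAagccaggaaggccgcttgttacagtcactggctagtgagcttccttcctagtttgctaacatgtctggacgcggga
The H1 box was found in 5 of 6 H1 promoters, 115 bases before the start in Hist1h1e, and Hist1h1a was the one H1 promoter without these letters in the window. It occurred in 7.18% of all 32851 promoters. The octamer was found in 7 of 17 H2A and 7 of 17 H2B promoters and in 0 of the H1, H3 and H4 promoters, against 1.74% of all promoters. CCAAT was found in all 50 promoters outside H4 and in 3 of 12 H4 promoters, against 37.4% of all, and TATAAA in 35 of 62, against 13.6%. These matches describe the sequence and say nothing of which factor was bound.

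Across the 12 tumors, Hist3h2ba had the largest SD of log2(RPKM + 1), at 1.24, followed by Hist2h2ac at 1.14, Hist1h2bn at 1.04, Hist1h1a at 1.01 and Hist1h2bj at 0.906. Hist3h2a, an H2A gene of the same cluster, was 52.5, 42.7, 39.9 and 79.6 RPKM in retro-orbital tumors 1 to 4, 95.0, 20.2 and 30.1 in the cheek tumors, 143, 101 and 70.3 in the meninges tumors, 110 in the vestibular and 73.7 in the trigeminal nerve tumor. Its neighbor Hist3h2ba was at 0.199 and 0 RPKM in cheek tumors 2 and 3 and at 17.5 RPKM in meninges tumor 1, and the pseudogene Hist3h2bb-ps was between 0.226 and 9.22 RPKM. All 3 were low in cheek tumors 2 and 3, whose sums over the whole family, 3001 and 3894 RPKM, lay within the range of the other tumors. Hist2h2ac, an H2A gene of the Hist2 cluster, was 64.3, 25.4, 10.2 and 31.1 RPKM in retro-orbital tumors 1 to 4, 63.5, 70.9 and 96.8 in the cheek tumors, 113, 30.5 and 16.2 in the meninges tumors, 118 in the vestibular and 19.3 in the trigeminal nerve tumor. It was high in cheek tumors 2 and 3, and low and high values occurred within both the retro-orbital and the meninges tumors. Hist4h4, the H4 gene of the Hist4 cluster, was 115, 98.7, 83.6 and 131 RPKM in the retro-orbital, 157, 175 and 205 in the cheek, 214, 201 and 89.3 in the meninges, 286 in the vestibular and 104 in the trigeminal nerve tumor. Every cheek tumor was above every retro-orbital tumor for Hist4h4, which held for other histone genes too and was not counted over all genes. In the limma F test over locations its adjusted p was 0.379, and cheek tumors 2 and 3 share an identifier.

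Locations were compared over the 10 retro-orbital, cheek and meninges tumors with the limma F test on 14745 genes. No histone gene of 58 was called at an adjusted p under 0.05, and 6 genes in all were, a share of 0.0407%. At an unadjusted p under 0.05 there were 10 histone genes, or 17.2%, where the share of all genes tested was 14.3%, so over these 10 tumors the family was near the background. With the identifier as a replicate block, chosen after the data were seen, 9 histone genes (15.5%) and 2802 genes in all (19.0%) were called, with a correlation of 0.93 estimated from 2 pairs. The smallest unadjusted p was 0.0130, for Hist1h2ah (adjusted p = 0.267), a gene at 0.326 to 5.80 RPKM with 12.1% unique windows. All 58 genes were nonetheless higher on average in the meninges than in the retro-orbital tumors, with a median difference of 0.80 on the log2(RPKM + 1) scale, and 51 were higher in the cheek, with a median of 0.44. Over all genes tested these medians were 0.13 and -0.02, and 9401 and 7161 of the 14745 were higher. The histone genes vary together over the tumors, so these counts are not of independent genes. Every meninges tumor was above every retro-orbital tumor for 7 of the 58 genes, or 12.1%, and over all genes tested this held for 6.82%. The count at an unadjusted p under 0.05 depended on the tumors. It was 24 (41.4%) without retro-orbital tumor 4, where the share of all genes was 15.3%, and 1 (1.72%) without retro-orbital tumor 2, against 13.8%. It was 2 (3.45%) without retro-orbital tumor 3, against 15.8%, and 2 (3.45%) with Mki67 as a covariate, against 13.3%. Without cheek tumor 1, 198 genes in all were called and still no histone gene. The meninges tumors also had the higher Mki67, at 59.9 ± 4.16 RPKM against 33.7 ± 13.0 in the retro-orbital tumors. Among markers of other cells, the astrocyte sum was at 84.8 to 348 RPKM against 0.490 to 249. Mbp, a gene of cells that make myelin, was at 16.6 to 26.8 RPKM against at most 17.7. The sum of neuronal markers was higher on average, at 32.8 against 21.9 RPKM. Leukocyte, endothelial and skeletal muscle sums were lower on average, at 254, 33.8 and 73.1 RPKM against 295, 36.3 and 91.3. The part of cells other than tumor cells in these values was not tested.

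Among genes that transcribe, process or bind histone RNA, 9 of the 11 listed were tested and none was called. An unadjusted p under 0.05 with a positive slope was found for 4 (44.4%, against 10.5% of all genes tested), and the median slope of the list was 0.39. Slbp, which binds the stem-loop, was 22.5, 18.9, 11.6 and 26.6 RPKM in retro-orbital tumors 1 to 4, 27.4, 24.1 and 26.6 in the cheek, 24.5, 30.3 and 23.0 in the meninges, 46.7 in the vestibular and 16.3 in the trigeminal nerve tumor, and its slope was 0.58. It was highest in the tumor with the highest histone sum, and its r with that sum was 0.79. Npat, the coactivator of histone gene transcription in S phase, had a slope of 0.10 and was between 9.85 and 19.3 RPKM. The chaperones that hand histones to new DNA, Chaf1a, Chaf1b, Asf1a, Asf1b and Nasp, had a median slope of 0.63, and 3 of 5 had an unadjusted p under 0.05.
Histone genes listed as replication-independent had a median slope of 0.30, and 3 of 11 (27.3%) had an unadjusted p under 0.05. Most of them, though not all, are expressed through the cell cycle and as polyadenylated RNA. The stem-loop was not looked for in these 11 genes. H2afx, which encodes the H2A variant of the DNA damage response, had a slope of 0.96 ± 0.19 (SE, adjusted p = 0.0926 in limma). Its r with the histone sum was 0.95, the highest of these 11. H3f3b, a gene of the H3.3 variant, had a slope of -0.23, and at 439 and 402 RPKM was highest in retro-orbital tumor 3 and the trigeminal nerve tumor, where no other tumor was above 231 RPKM.
Of 20 S phase genes 17 (85.0%), and of 12 G2 and M phase genes 11 (91.7%), had an unadjusted p under 0.05 with a positive slope (medians 0.71 and 0.76), and none of either list was called. The share was 79.3% of the histone genes and 10.5% of all genes tested, so a positive slope on Mki67 was not particular to the histone genes. Top2a is in the second of these lists and, like Mki67, marks cycling cells, and its r with the histone sum was 0.76. That of Pcna, the sliding clamp of DNA replication, was 0.71. Rmrp, Rpph1 and Terc, RNAs without poly(A) that are not histone RNA, had slopes of -0.19, -0.08 and 0.34, none with an unadjusted p under 0.05.

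Among 13241 other genes with a median of at least 1 RPKM, the 10 with the highest Pearson r with the summed histone RPKM over 12 tumors were Ccnf (0.97), Uhrf1 (0.96), Snrpa (0.96), H2afx (0.95), Cdca5 (0.94), Cad (0.94), Mcm7 (0.94), Cdk2 (0.93), Mcm5 (0.93) and Plk1 (0.93). Ccnf encodes cyclin F, Mcm5 and Mcm7 subunits of the replicative helicase, and Cdk2 the kinase of S phase entry. Mki67 ranked 351st by this measure, Top2a 629th, Slbp 434th and Pcna 960th. Within the family, the r of a gene with the sum of the other histone genes had a median of 0.87 over the 58 genes tested and was lowest for Hist1h1t, at 0.12.

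Marker sums of other cells were set beside the histone sum. The sum of 7 leukocyte markers, among them Ptprc, Csf1r and Cd68, was 102 to 444 RPKM and had an r of -0.42 with the histone sum, and that of the endothelial markers Pecam1, Cdh5 and Kdr was 12.3 to 53.9 RPKM with an r of -0.24. The sum of the skeletal muscle markers was 4.53 to 456 RPKM, with an r of 0.18. The neuronal sum was 10.6 to 39.9 RPKM (r of 0.16) and the astrocyte sum, of Gfap and Aqp4, 0.490 to 348 RPKM (r of 0.28). Mbp had the largest r of those given here, at 0.52 with a rho of 0.53. Hbb-bs and Hba-a1, of red cells, were listed at 0 in all 12 tumors, and whether their reads were lost as not unique was not tested. The fragment total had an r of -0.32 with the histone sum, and the sum of the other RNAs without poly(A) 0.21. The part of these in the histone values was not tested.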

How the data were processed

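RNA of 12 RTs was sequenced as stranded libraries after depletion of ribosomal RNA, in a single pool. Reads were aligned by the authors with STAR (mm10), HTSeq counted those with a unique position over the RefSeq genes, and 1 RPKM value per gene and tumor was deposited. Uniquely mapped reads undercount near-identical histone copies, and RPKM scaling makes values relative within a tumor. The submitters' processing notes also name bcl2fastq 2.17. Tumors were grouped by the location in the labels.

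From the RPKM, sums by class and cluster were computed, and limma 3.58.1 in R 4.3.3 (trended, robust prior variance, two-sided) was fitted on log2(RPKM + 1) over all genes that reached 1 RPKM in 3 or more tumors, either on log2(Mki67 RPKM + 1) or as an F test over locations, with Benjamini-Hochberg adjustment at 0.05. Scripts were tested on simulated data. Correlations are descriptions without p. The size of 1 fragment in low RPKM values gave the fragment totals and numbers, at a tolerance of 0.02 fragments. GENCODE M21 has the build of mm10. Python 3.11.15 was used for sums, sequences and plots. In 27 rows the symbol had turned into a date. These stayed in fits over all genes and are not named.

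The genes, lists and tests were chosen with earlier results of these data known. Named members are the 2 highest medians of each class, all H1 genes, testis-type genes, genes also polyadenylated outside S phase, clusters Hist3 and Hist4, the 5 largest and 5 smallest slopes, the 5 largest SDs and any called by location. Genes named for shared sequence, and Hist1h2ah, Hist1h2af and Hist1h3d, were chosen after their values were seen. Other named genes are those of the fixed lists and the 10 most like the histone sum. Tumors were taken as separate samples. The labels share an identifier in 3 pairs, whose patterns over 58 histone genes had an r of 0.82, 0.57 and 0.54, and the identifier was added as a replicate block (limma duplicateCorrelation). Alternatives changed the pseudocount, filter, normalization, index gene, covariates and tumors left out. The result of 1 marker list is not reported here.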

Additional observations from a re-analysis of the deposited data

Results flagged for a closer look

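Of 70 values checked in the 4 retro-orbital tumors, 9 had a tumor far from the others by Dixon's 95% critical value for 4 samples, and 8 of the 9 set apart retro-orbital tumor 3. Chance flags about 1 in 20 groups, and many of these values share genes and are not independent. In retro-orbital tumor 3, the ratio of Hist1h1e to Hist1h1a was 11.5 (1.41 to 2.75 in the other 3), that of Hist1h1c to Hist1h1a was 9.57 (0.880 to 2.35) and that of Hist1h1d to Hist1h1a was 3.46 (1.27 to 1.42). The H1 genes held 24.3% of its histone RPKM (14.9% to 16.4% in the others) and the H2A genes 9.04% (11.4% to 11.5%). H3f3b, a replication-independent H3.3 gene, was at 439 RPKM (192 to 221). Its summed astrocyte markers were at 249 RPKM (0.490 to 16.2), and its summed testis germ cell markers at 1.62 RPKM (0 to 0.130), all of it Prm1. In retro-orbital tumor 4, the summed neuronal markers were at 38.0 RPKM (15.3 to 18.6). The ratios were added to the values checked after they were seen.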

How the results depend on the processing

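The number of histone genes called in the Mki67 fit, 0 as reported, was 2 with a pseudocount of 0.1 and 2 with a filter of 5 RPKM (Hist1h2ak and Hist1h2bn in both), 1 with Top2a as the index (Hist1h4i), 29 with the identifier as a replicate block (chosen after the data were seen), 0 to 22 when 1 tumor was left out, and 0 under the other 6 alternatives. All genes called numbered 18, 15 and 2 in the first 3 of these. The number with an unadjusted p under 0.05, 46, was 23 with location as a covariate (39.7%, against 9.57% of all genes). Without 1 tumor it was 31 to 49. The 31 (53.4%, against 25.6% of all genes) were without retro-orbital tumor 3, and the 49 (84.5%, against 17.3%) without the trigeminal nerve tumor. In the location fit, 9 histone genes (15.5%, against 19% of all genes) were called with the replicate block and 0 under each other alternative. The number with an unadjusted p under 0.05, 10, was 31 with the block (53.4%, against 34% of all genes). It was 2 with Mki67 as a covariate (3.45%, against 13.3%). Without 1 tumor it was 1 (1.72%, against 13.8%) to 24 (41.4%, against 15.3%). The correlation of the histone sum with Mki67, 0.80, was 0.71 with Pcna as the index and 0.61 without the 2 tumors farthest from the median Mki67. The mean of the class medians, a smaller quantity by construction than the class sum, was 115 RPKM for H1, 11.4 for H2A, 22.4 for H2B, 42.2 for H3 and 69.6 for H4. Of 546 slopes of 25 named genes under alternatives, 504 kept their direction and side of the threshold, 31 became called and 11, of 7 genes, turned negative. These were Hist1h1e (-0.09) with location as a covariate, Hist1h1c (-0.33) and Hist1h2bp (-0.14) with the same, Hist1h1c (-0.09) and Hist1h1t (-0.34) with Pcna as the index, Hist1h2bp (-0.02) and Hist2h2ab (-0.02) after quantile normalization, Hist2h2ab (-0.09) with the replicate block, and when 1 tumor was left out Hist2h2be (-0.35 to 0.28), Hist2h2ac (-0.16 to 1.06) and Hist2h2ab (-0.03 to 0.34), the first 2 lowest without retro-orbital tumor 3 and the last without retro-orbital tumor 2. The cause was not tested. The paired analysis is the block on the identifier, since the replicate numbers were given in accession order. The part of depth in these results was not tested, and genes under 1 RPKM rest on few fragments.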

Other observations

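After the level of the whole family in each tumor was removed (the median over 58 genes of their log2 deviations from their means over 12 tumors), pairs of tumors could be compared by the pattern that remained. Of 66 pairs, cheek tumors 2 and 3 had the highest Pearson r over the 58 genes, at 0.82, cheek tumor 1 and meninges tumor 1 the third highest, at 0.57, and retro-orbital tumor 3 and the trigeminal nerve tumor the fourth, at 0.54. These are the 3 pairs that share an identifier, and 2 of them join different locations. The second highest, 0.69, was between retro-orbital tumor 4 and meninges tumor 2, which do not share one, and the next after the fourth was 0.31. The genes are not independent, this pattern was noticed after the values were seen, and no test was run on it.

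In cheek tumors 2 and 3, 8 genes had their 2 lowest relative values, among them Hist1h2bc, Hist1h3d and the 3 genes of the Hist3 cluster, and 7 their 2 highest, among them Hist1h2bb and Hist2h2ac. In retro-orbital tumor 3 and the trigeminal nerve tumor, 6 genes had their 2 highest, among them Hist1h1c, Hist1h1e, Hist1h2bf and Hist1h3e, and 4 their 2 lowest, which were Hist1h1a, Hist1h3b, Hist1h3g and Hist1h4b. The third pair, cheek tumor 1 and meninges tumor 1, showed less of this. Only 1 gene, Hist3h2a, had its 2 highest values there, and 3 their 2 lowest, which were Hist1h2bb, Hist1h4d and Hist2h2ab. Pairs that share no identifier were not counted in this way. Genes named here outside the rule for named genes were chosen after their values were seen.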
